A study of Mus musculus with 27 samples.

Results

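The 9 genes Fos, Fosb, Fosl2, Jun, Junb, Jund, Egr1, Egr2 and Ier2, immediate early genes of the AP-1 and EGR systems, were followed in cells of mouse foetal liver across 4 genotypes and 3 culture times. They were chosen by symbol through the platform annotation and are 9 of the 18193 genes on the array with a probe set of 1 symbol. Together they have 13 of the 34945 such probe sets, and each gene is described by its brightest one. Of the 9 genes, 7 passed a filter that left out the 40% of genes with the lowest mean signal, so 10916 genes were tested. Fosb and Egr2 did not pass, with probe sets at the 17.4 and 16.2 percentiles of all genes, and are described without a test.

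Livers were taken at E14.5, a stage of embryonic growth at which this organ is the main site of blood formation and is rich in red cell precursors. Their cells were kept for 0, 24 or 48 h in a medium with 30% foetal bovine serum and no other treatment, and total RNA was hybridized to 27 Affymetrix mouse genome arrays. The wild type (WT) had 3, 2 and 2 arrays at 0, 24 and 48 h, and the knockout of p107 (p107KO; gene symbol Rbl1) had 2, 2 and 1. The knockout of Rb1 (Rb1KO) had 5, 4 and 2 arrays, and the knockout of both genes (DKO) had 2, 1 and 1. All groups shared the stage, the tissue and the medium, so that cells cultured for 24 or 48 h differed from those at 0 h in serum exposure as well as in time. Strain, the part of each gene that was altered, and whether cells of several embryos were pooled are not given in the sources used here. Nor is it given whether replicate arrays of a group came from different embryos, so the p-values reflect variation among these arrays, part of which may be technical.

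AP-1 is a family of dimeric transcription factors in which a FOS subunit (Fos, Fosb, Fosl2) pairs with a JUN subunit (Jun, Junb, Jund), and JUN subunits can also pair with each other. EGR1 and EGR2 are zinc finger factors that bind GC-rich DNA. Most of these genes are called immediate early because serum, growth factors or stress raise their transcription within minutes without new protein synthesis, through MAP kinases acting on factors such as SRF, its ternary complex partners and CREB; Jund is known for a more constant level. The proteins of Rb1 and Rbl1 are pocket proteins, which hold E2F factors in check and so slow the start of DNA replication. In blood formation, JUN and FOS proteins are known from the myeloid and erythroid lineages and EGR1 from the macrophage lineage.

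Promoter windows of 250 bases upstream of the annotated start, from RefSeq on GRCm38.p6, were found for 7 of the 9 genes (11 windows in all, 5 of them for Egr2). Egr1 and Ier2 had no window, so no motif was sought for them. The windows of the 4 AP-1 genes with a rise in each of the WT, p107KO and Rb1KO cultures are shown, because motifs of the factors named above were sought in them. They lie at chr12:85473640-85473889 (Fos, plus strand), chr4:95052223-95052472 (Jun, minus strand), chr8:84978749-84978998 (Junb, minus strand) and chr8:70697489-70697738 (Jund, plus strand), each written 5′ to 3′ on the gene's strand with matches to the motifs in capitals.
Fos: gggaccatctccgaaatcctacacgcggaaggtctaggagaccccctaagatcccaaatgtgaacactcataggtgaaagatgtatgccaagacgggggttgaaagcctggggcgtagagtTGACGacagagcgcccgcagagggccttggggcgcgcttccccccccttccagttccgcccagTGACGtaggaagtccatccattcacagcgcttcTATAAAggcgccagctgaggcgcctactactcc
Jun: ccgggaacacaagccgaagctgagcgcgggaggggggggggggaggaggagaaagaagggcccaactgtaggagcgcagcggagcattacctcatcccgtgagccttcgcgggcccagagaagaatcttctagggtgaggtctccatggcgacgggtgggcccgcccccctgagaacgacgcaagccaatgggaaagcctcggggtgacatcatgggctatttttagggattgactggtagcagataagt
Junb: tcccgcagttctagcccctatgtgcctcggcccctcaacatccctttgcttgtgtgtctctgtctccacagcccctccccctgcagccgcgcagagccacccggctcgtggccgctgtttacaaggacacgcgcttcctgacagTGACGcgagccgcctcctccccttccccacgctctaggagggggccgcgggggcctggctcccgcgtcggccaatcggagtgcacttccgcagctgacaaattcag
Jund: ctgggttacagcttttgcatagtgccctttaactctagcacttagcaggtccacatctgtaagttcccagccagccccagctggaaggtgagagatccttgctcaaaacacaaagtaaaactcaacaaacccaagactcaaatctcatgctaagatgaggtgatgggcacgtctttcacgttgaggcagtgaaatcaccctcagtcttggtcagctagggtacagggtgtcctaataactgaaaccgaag
The Fos window holds TGACG, the core of the cAMP response element to which CREB and ATF factors bind, at 129 to 125 and at 66 to 62 bases before the start, and TATAAA at 33 to 28 bases before it. The Junb window holds TGACG at 106 to 102 bases before the start. No motif sought was found in the windows of Jun and Jund. Of the other members, Fosb has TGACG and Egr2 has TGACG on both strands, so that 4 of the 7 genes hold this core in some window. Counted by window and not by gene, 17.8% of all 32851 windows hold it on either strand. With 5 windows, some of them overlapping, Egr2 had more chances of a match than a gene with 1. The CArG box, the element of SRF, was found in Egr2 and is in 1.47% of all windows. The EGR motif GCGNGGGCG, in 4.7% of all windows, was found in Fosb and Fosl2, and the E2F motif TTTGGCGC, in 0.417% of them, in Fosl2. TATAAA is in 12.4% of all windows. The full element TGACGTCA (1.55% of all windows, each also counted for TGACG), the AP-1 motif TGANTCA (6.75%) and the ETS motif CCGGAAG (6.91%) were in none of the members' windows. Both strands were searched, and a match describes these letters in this window and no more. A motif that was not found may lie outside these 250 bases.

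The values are MAS5 signals, brightness on a linear scale in which the authors had set the arrays to a like total: the mean without the extreme probe sets lay between 491 and 497 on all 27. Rbl1 separated the arrays labelled p107KO and DKO (70.3 to 167.5) from WT (798.0 to 1746) at each time. Rb1 separated Rb1KO and DKO arrays from WT at 0 h (1377 to 2825 against 6144 to 7105) and at 24 h (2659 to 4600.0 against 8589 to 10309). At 48 h it did not: the arrays labelled Rb1KO had 4207 and 5453 and the array labelled DKO 5994, against 5746 and 6583 in WT, so directions at 48 h rest on those labels. As many as 4 arrays were taken to stand apart from others of their time. Rb1KO 0 h replicate 5 had the lowest median correlation with the other 0 h arrays (r = 0.954), a rule that always picks 1 array. Replicate 1 of p107KO, Rb1KO and DKO at 24 h was picked by its brightest probe set. This had 125649 to 154046, against 51378 to 76435 on the other 24 h arrays. Their median correlations, 0.937 to 0.952, were also the lowest at 24 h. The 154046 on the p107KO array was the signal of S100a8, used below as a neutrophil marker. The part of neutrophil RNA in setting these arrays apart was not tested. Signal of the Y-linked gene Eif2s3y was present on 9 arrays, among them all 4 DKO arrays and none of WT. In such bulk RNA, fewer cells of a type and less RNA per cell cannot be told apart.

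Fos, the subunit for which the family is named, was low at 0 h, with the lowest signals in WT, and high in all cultured cells. At 0 h its signals were 136, 119 and 213 on the 3 WT arrays, 295 and 213 on the p107KO arrays, 601, 593, 524, 428 and 602 on the Rb1KO arrays and 552 and 547 on the DKO arrays. Every array without Rb1 was above every array with it, and the p107KO arrays began just above the highest WT array. At 24 h the signals were 2346 and 1208 in WT, 1828 and 1400.3 in p107KO, 2084, 1409.7, 1578 and 2250.2 in Rb1KO and 1507 on the DKO array. At 48 h they were 4191 and 2125 in WT, 2193 in p107KO, 3989 and 2757 in Rb1KO and 3336 in DKO. The genotypes overlapped at both cultured times, and no cultured array was as low as any array at 0 h. The group means at 0 h were 156 ± 49.9 (SD, n = 3) in WT, 254 ± 57.6 (SD, n = 2) in p107KO, 549 ± 3.0 (SD, n = 2) in DKO and 549.6 ± 75.5 (SD, n = 5) in Rb1KO, and all cultured groups followed above them. Only the steps from WT to p107KO, from p107KO to DKO and from Rb1KO at 0 h to DKO at 24 h were free of overlap between neighbouring groups.

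Fosl2, another FOS subunit, stayed low at 0 and 24 h and was higher at 48 h in each genotype. WT had 177, 149 and 165 at 0 h, 293 and 144 at 24 h and 674 and 352 at 48 h. Rb1KO had 194, 99.6, 82.8, 122 and 129.7 at 0 h, 120.2, 115, 107.1 and 37.5 at 24 h and 566 and 354 at 48 h. The 48 h arrays of p107KO (436) and DKO (381) were also above all arrays of the earlier times, which ran up to 293. Group means ran from 94.8 ± 38.6 (SD, n = 4) in Rb1KO at 24 h to 512 ± 228 (SD, n = 2) in WT at 48 h, and among neighbours only DKO at 48 h stood clear of the group below it and p107KO at 48 h of DKO. The other Fosl2 probe set was dimmer, from 17.7 to 191.3, and did not have this course. Its means at 0, 24 and 48 h were 83.4, 38.1 and 100.2 in WT, 112.2, 92.0 and 58.5 in Rb1KO, and 45.2, 149.8 and 79.2 in DKO. Fosb, known for a stable splice form that builds up in neurons, had signals from 1.9 to 148.8 with a median of 30.8, and groups that neighboured in the order of means overlapped, except for the single DKO array at 24 h, which had the lowest value. Without the filter, Fosb passed the threshold in none of the comparisons below.

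Jun, the subunit that gives the JUN family its name, was low at 0 h and higher at each later time. At 0 h its signals ran from 120.5 to 237 over all 12 arrays. At 24 h WT had 1622 and 1465, p107KO 873 and 1313, Rb1KO 713, 1472, 720.0 and 942 and DKO 517. At 48 h WT had 6252 and 7010.5, p107KO 6634, Rb1KO 4842 and 5923 and DKO 3824. The 3 times did not overlap in any genotype, and within both cultured times the DKO array was the lowest. At 24 h 1 of the 4 Rb1KO arrays (replicate 2) lay between the WT arrays and the other 3 below both. The WT mean went from 165 ± 27.1 (SD, n = 3) to 1544 ± 111 (SD, n = 2) and 6631 ± 536 (SD, n = 2), and the Rb1KO mean from 181 ± 38.4 (SD, n = 5) to 962 ± 357 (SD, n = 4) and 5382 ± 764 (SD, n = 2). A second, dimmer Jun probe set had the same order of times, with WT means of 172.9, 622.5 and 1620 and Rb1KO means of 224.5, 524.1 and 1381. In the order of Jun group means, the neighbours that overlapped were WT, p107KO and Rb1KO at 0 h, Rb1KO and p107KO at 24 h, and WT and p107KO at 48 h.

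Junb, a JUN subunit often described as an opponent of Jun in cell growth, had a like course in WT. WT had 149, 206 and 186 at 0 h, 624 and 567 at 24 h and 2073 and 1339 at 48 h, 3 ranges without overlap. In p107KO the signals were 77.3 and 274 at 0 h, 952 and 747 at 24 h and 1514 at 48 h. In Rb1KO they were 229.5, 240.4, 216, 262 and 73.9 at 0 h, 399, 689, 400.3 and 399 at 24 h and 1177 and 798 at 48 h. The DKO arrays had 220.1 and 232 at 0 h, 285 at 24 h and 581 at 48 h. At 48 h both arrays labelled Rb1KO and the array labelled DKO were below the 2 WT arrays and the p107KO array. The highest group mean, 1706 ± 519 (SD, n = 2), was in WT at 48 h, which overlapped p107KO at 48 h and no other group, and the groups at 0 h overlapped each other from neighbour to neighbour, with DKO, the highest of them, clear of DKO at 24 h above it.

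Jund, the JUN subunit whose probe set lies at the 97.9 percentile of all genes, was bright at all times. At 0 h its signals were 2948, 2879 and 3400.3 in WT, 1706 and 2694 in p107KO, 2848, 7877, 5537, 2906 and 4508 in Rb1KO and 6228 and 5887 in DKO. The 2 DKO arrays were above all WT and p107KO arrays, and the Rb1KO arrays spread from below the WT arrays to above DKO. At 24 h the signals were 24434 and 23367 in WT, 19668 and 13819 in p107KO, 23243, 9944, 16556 and 16125 in Rb1KO and 11855 in DKO. At 48 h they were 28493 and 30353 in WT, 23801 in p107KO, 27799.6 and 25909 in Rb1KO and 16893 in DKO. No array at 0 h reached any cultured array, and the 2 WT arrays were the highest at each cultured time. The lowest group mean, 2199.9 ± 699 (SD, n = 2), was in p107KO at 0 h, and the highest, 29423 ± 1315 (SD, n = 2), in WT at 48 h. The Rb1KO range at 24 h took in the p107KO and DKO arrays of that time. A second Jund probe set was dim, from 22.6 to 165.3, and did not have this course in every genotype. Its means at 0, 24 and 48 h were 59.8, 104.8 and 120.2 in WT, 56.0, 76.8 and 46.5 in Rb1KO, and 66.0, 33.5 and 75.1 in DKO.

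Egr1, the zinc finger factor of the set with a bright probe set, did not have this course. WT had 1222, 995 and 733 at 0 h, 1335 and 1626 at 24 h and 1737 and 1513 at 48 h. Rb1KO had 1331, 862, 887, 670.3 and 943 at 0 h, 578, 973, 1156 and 962 at 24 h and 1058 and 969 at 48 h. The p107KO arrays ran from 818 to 1562 and the DKO arrays from 805 to 1498 over the times. At both cultured times all Rb1KO arrays were below both WT arrays, whereas at 0 h the groups overlapped. Group means ran from 805 on the DKO array at 24 h to 1625 ± 159 (SD, n = 2) in WT at 48 h, with overlap between neighbours except at the steps from Rb1KO to p107KO at 48 h and from DKO to WT at 48 h. Egr2, its relative known from hindbrain and Schwann cells, stayed dim, from 2.7 to 85.3 with a median of 26.7, and without the filter it too passed the threshold in none of the comparisons below.

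Ier2, an immediate early gene that encodes a nuclear protein outside both families, had 696, 854 and 709 in WT at 0 h, 2285 and 1721 at 24 h and 1722 and 1450.0 at 48 h. In Rb1KO it had 1216, 947, 1259, 1584 and 513 at 0 h, 1742, 2715, 2207 and 1828 at 24 h and 2447 and 1772 at 48 h. The p107KO signals were 842 and 746 at 0 h, 1904 and 1609 at 24 h and 1233 at 48 h. WT, p107KO and Rb1KO were each higher at 24 h than at 0 h without overlap, and the levels at 48 h overlapped those at 24 h in WT and Rb1KO but not in p107KO. The DKO arrays, at 1252 and 1146, 1260.2 and 1891 for the 3 times, had 24 h barely above 0 h. The lowest group mean, 753 ± 88.1 (SD, n = 3), was in WT at 0 h and the highest, 2123 ± 443 (SD, n = 4), in Rb1KO at 24 h. The groups at 0 h overlapped their neighbours in the order.

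**Figure D1:**
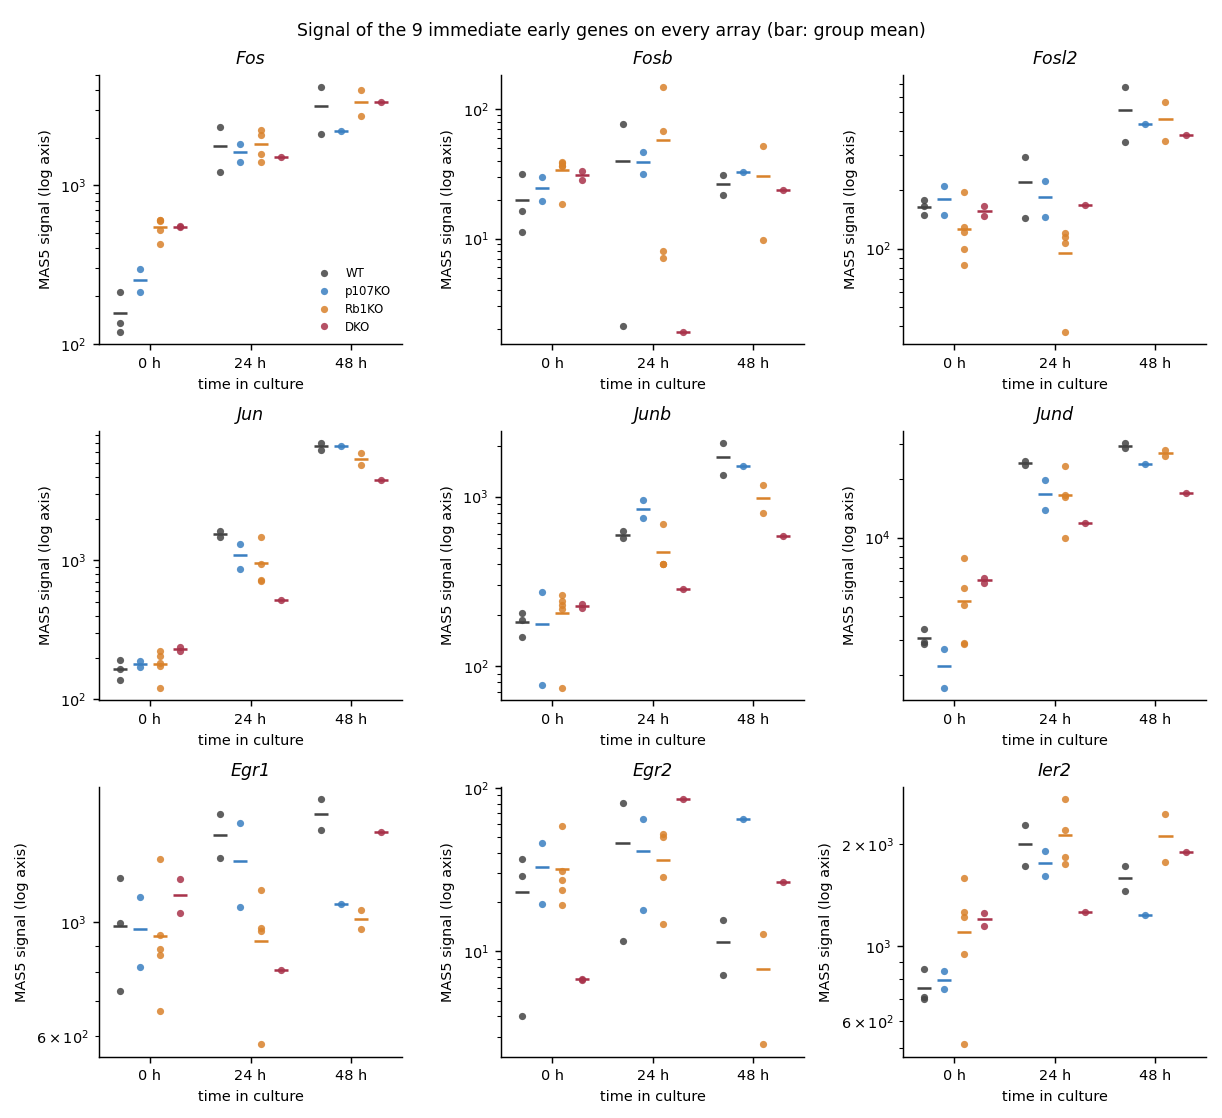
Signal of the 9 genes on each of the 27 arrays (log axis), by genotype and culture time, with bars at group means. Jun, Jund and Fos at 24 and 48 h lie above all arrays at 0 h, Fos at 0 h is lowest in WT (119 to 213), and Fosb and Egr2 stay dim.

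The effect of losing Rb1 was examined first in uncultured cells. Fos was the only member that passed the threshold between Rb1KO and WT at 0 h, and it was higher in Rb1KO. Changes are given as log2 differences of signal + 32 with their standard errors from a limma fit over all 27 arrays, and passing means a Benjamini-Hochberg adjusted p under 0.05 over all 10916 genes. Shares of all genes refer to this adjusted threshold. No share was taken at an unadjusted p under 0.05, so counts at that level cannot be set against these shares. Fos rose by 1.65 ± 0.24 (3.14-fold, log2 interval at 95% confidence 1.16 to 2.14, limma adjusted p = 0.000417), and all 5 Rb1KO arrays were above all 3 WT arrays. This was 1 of 7 members tested, where 0.614% of all genes passed in either direction and 0.540% were higher. Jund (0.51 ± 0.27, limma adjusted p = 0.78) and Ier2 (0.45 ± 0.24, adjusted p = 0.786) had positive differences that did not pass. The differences of Jun (0.10 ± 0.21), Junb (0.08 ± 0.31), Egr1 (-0.07 ± 0.22) and Fosl2 (-0.35 ± 0.29) also did not pass. The interval for Jun, -0.33 to 0.52, was narrower than that for Junb, -0.57 to 0.73. The median over the 7 members was 0.10, against -0.043 over all genes tested.

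Loss of Rb1 where p107 was already absent was compared between DKO and p107KO at 0 h, with 2 arrays each and none shared with the comparison above. None of the 7 members passed in limma, where 0.119% of all genes passed, and 2 members had an unadjusted p under 0.05. Fos differed by 1.04 ± 0.32 (2.05-fold, limma adjusted p = 0.626) and Jund by 1.48 ± 0.37 (2.80-fold, adjusted p = 0.21), with both DKO arrays above both p107KO arrays for each gene. With array weights, Fos (adjusted p = 0.0212) and Jund (adjusted p = 0.00381) passed. The difference in the effect of Rb1 loss with p107 absent against present, a comparison added later, was -0.61 ± 0.40 for Fos and 0.97 ± 0.45 for Jund. No gene and no member passed there in limma (0% of all genes), and of the members 1, Jund, had an unadjusted p under 0.05.

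DKO was also set against WT at 0 h, another added comparison, which shares its WT arrays with the first. Both DKO arrays and no WT array had Y-linked signal, so in this comparison genotype and Y-linked signal cannot be told apart. Fos was again 1 of 7 members that passed, at 1.66 ± 0.30 (3.16-fold, limma adjusted p = 0.00951), with 0.183% of all genes passing and 0.128% higher. This call was lost without WT replicate 1 (adjusted p = 0.0682), without WT replicate 2 (0.0721), without DKO replicate 1 (0.191) and without DKO replicate 2 (0.220), while the difference stayed between 1.52 and 1.67 in these. Jund had 0.97 ± 0.34 (limma adjusted p = 0.66). Between DKO and Rb1KO at 0 h, which differ by label in p107, and of which both DKO arrays and 1 of 5 Rb1KO arrays had Y-linked signal, Fos differed by 0.01 ± 0.27 with an interval of -0.55 to 0.57. No member passed there in limma and none had an unadjusted p under 0.05, where 0.00916% of all genes, a single gene, passed. That gene was Rbl1 itself, the gene by which the labels differ, so the share holds no other gene.

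Loss of p107 alone gave no call among the members. At 0 h 0 of 7 members passed in limma, where 0.00916% of all genes passed, which was Rbl1 alone. Of the members, 1 had an unadjusted p under 0.05. That member was Fos, with a difference from WT of 0.62 ± 0.30 (1.54-fold, unadjusted p = 0.0466, limma adjusted p = 1.000). At 24 h 0 of 7 passed, none had an unadjusted p under 0.05 and 0.0275% of all genes passed. The differences then ran from -0.53 for Jund and -0.51 for Jun to 0.48 for Junb.

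In cultured cells the members with the largest differences between Rb1KO and WT were lower in Rb1KO, and none passed the threshold. At 24 h 0 of 7 passed in limma, where 7.63% of all genes passed, and 3 members had an unadjusted p under 0.05. Those 3 were Fosl2 (-0.98 ± 0.35, limma adjusted p = 0.0888), Jun (-0.73 ± 0.24, adjusted p = 0.0722) and Egr1 (-0.71 ± 0.26, adjusted p = 0.0978). Without Rb1KO 24 h replicate 2, whose Jun signal lay between those of the WT arrays, Jun passed (-0.95, limma adjusted p = 0.00939). That array had the highest Jun signal of its group, so its removal widens the difference by itself and adds no support. Jund was at -0.60 ± 0.32 and Junb at -0.35 ± 0.37, while Fos (0.09 ± 0.28) and Ier2 (0.07 ± 0.28) had differences near 0. The median over the members was -0.60, against -0.073 over all genes. At 48 h 0 of 7 passed, where 10.4% of all genes passed, and 1 member had an unadjusted p under 0.05. Egr1 differed by -0.66 ± 0.30 (limma adjusted p = 0.18) and Junb by -0.76 ± 0.43 (adjusted p = 0.304), whereas Fos was at 0.15 ± 0.32.

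**Figure D2:**
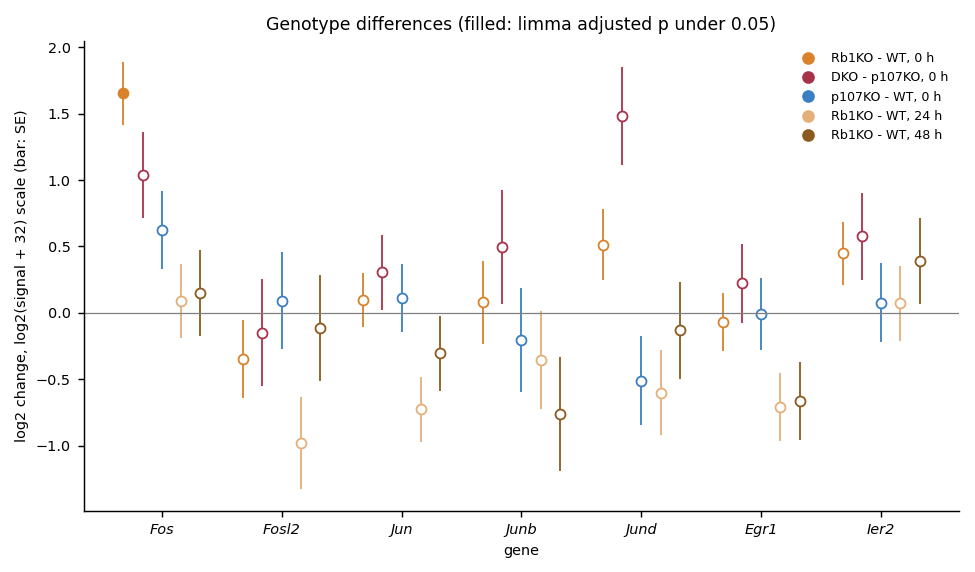
Log2 differences with standard errors for the 7 tested members between Rb1KO and WT at 0, 24 and 48 h, between DKO and p107KO at 0 h and between p107KO and WT at 0 h; filled points passed a limma adjusted p of 0.05. Fos at 0 h in Rb1KO (1.65) is the single filled point.

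Some heat shock chaperones, which help proteins fold under stress, were also higher in Rb1KO at 0 h. Of the 9 on the list, which includes Hspa1a, Hspa1b and their cochaperone Dnajb1, 3 were higher in Rb1KO than in WT at 0 h and none lower, with 0.614% of all genes passing. Hspa1b, an inducible HSP70, had 165, 183 and 244 in WT, 477 and 236 in p107KO, 1494, 1334, 1642, 1190.2 and 2560.3 in Rb1KO and 2926 and 2369 in DKO. As for Fos, all arrays without Rb1 were above all arrays with it. Its difference was 2.83 ± 0.25 (7.12-fold, limma adjusted p = 1.59e-06) between Rb1KO and WT and 2.85 ± 0.35 (7.22-fold, adjusted p = 0.000134) between DKO and p107KO. The probe sets of Hspa1b and of its near-identical copy Hspa1a may each read both genes, which leaves their separate values uncertain. The summed signal of the list was 50961 to 62437 in WT, 52545 to 62743 in p107KO, 63886 to 83164 in Rb1KO and 71589 to 76885 in DKO. This sum is weighted to its brightest genes, as Hspa8 had 24706 to 85304 and Hsp90aa1 12623 to 62405 over all arrays. It therefore does not describe a rise of the whole list. Of the other immediate early genes, Klf10 (1.08 ± 0.16, adjusted p = 0.000776), a zinc finger repressor, and Dusp1 (0.58 ± 0.13, adjusted p = 0.0366), a MAP kinase phosphatase, were higher in Rb1KO at 0 h, as 2 of the 20 tested. The part of these genes' differences in the Fos result was not tested. No marker of erythroid, hepatocyte, macrophage, neutrophil, megakaryocyte, mast, endothelial or stromal cells passed between Rb1KO and WT at 0 h, or between DKO and p107KO at 0 h in limma. Of 6 megakaryocyte markers, however, 5 had an unadjusted p under 0.05 between Rb1KO and WT and 1 between DKO and p107KO, and none of the other lists had any. The share of all genes at that unadjusted level was not taken. The summed megakaryocyte signal was 23285 to 33614 in WT and 28131 to 33268 in p107KO against 14627 to 26764 in Rb1KO and 20683 to 21315 in DKO; its part in the Fos result was not tested. The Fos difference between Rb1KO and WT was 1.62 (adjusted p = 0.00204) without the 4 arrays that stood apart and 1.66 (adjusted p = 0.00762) without those 9 arrays that had Y-linked signal.

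**Figure D3:**
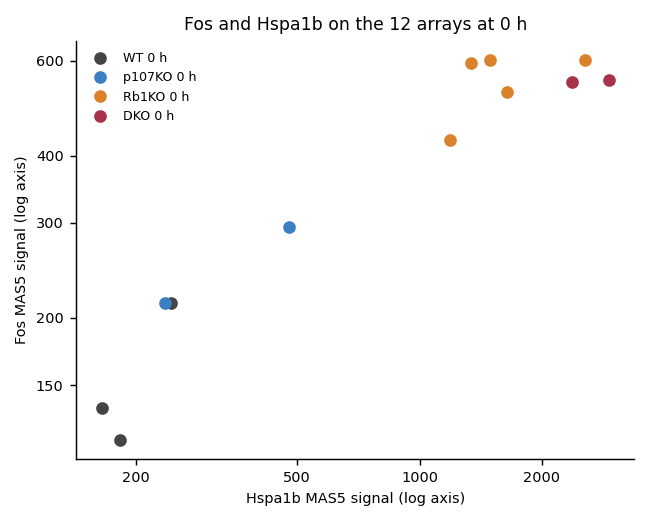
Signals of Fos and Hspa1b on the 12 arrays at 0 h (log axes), 1 point per array, coloured by genotype. Arrays of Rb1KO and DKO lie at Fos signals of 428 to 602 and Hspa1b signals of 1190.2 to 2926, apart from the WT and p107KO arrays on both axes.

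Most of the tested members were higher after culture in the wild type. From 0 to 24 h 5 of 7 rose and none fell in limma, where 36.9% of all genes passed in either direction and 15.0% rose. Fos rose by 3.22 ± 0.30 (9.34-fold, limma adjusted p = 1.5e-08), Jun by 3.005 ± 0.257 (8.03-fold, adjusted p = 5.18e-09) and Jund by 2.95 ± 0.34 (7.72-fold, adjusted p = 3.61e-07). Smaller rises were those of Junb (1.57 ± 0.39, 2.97-fold, adjusted p = 0.00297) and Ier2 (1.37 ± 0.30, 2.58-fold, adjusted p = 0.000905). Each of these 5 had both 24 h arrays above all 3 arrays at 0 h. Egr1 (0.60 ± 0.27, adjusted p = 0.0886) and Fosl2 (0.29 ± 0.37) did not pass. The median over the members was 1.57, against -0.085 over all genes.

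From 24 to 48 h in WT, 3 of 7 members rose and none fell, with 25.2% of all genes passing and 13.2% rising. Jun rose again, by 2.08 ± 0.28 (4.23-fold, limma adjusted p = 2.83e-05), as did Junb, by 1.44 ± 0.43 (2.71-fold, adjusted p = 0.0165). Fosl2 rose by 1.12 ± 0.40 (2.18-fold, adjusted p = 0.0436). With 2 arrays a group these calls rested on single arrays: without WT 24 h replicate 2 or without WT 48 h replicate 1, Jun alone passed, with Junb at adjusted p = 0.0963 and 0.150 and Fosl2 at 0.382 and 0.355. Junb was also lost without WT 24 h replicate 1 (0.0555). Fos (0.81 ± 0.32, limma adjusted p = 0.0691) did not pass with all arrays and passed without WT 24 h replicate 1 (0.0188) or WT 48 h replicate 2 (0.0172). Jund (0.30 ± 0.37), Egr1 (0.14 ± 0.30) and Ier2 (-0.32 ± 0.33) did not pass either.

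Over the whole 48 h, a comparison added later that shares arrays with both steps, 7 of 7 tested members were higher in WT, where 49.8% of all genes passed and 20.0% were higher. Jun had the largest rise, 5.08 ± 0.26 (33.9-fold, limma adjusted p = 1.25e-12), then Fos (4.04 ± 0.30, 16.4-fold), Jund (3.25 ± 0.34, 9.50-fold) and Junb (3.01 ± 0.39, 8.05-fold). Fosl2 (1.41 ± 0.37, 2.66-fold), Ier2 (1.04 ± 0.30, 2.06-fold) and Egr1 (0.73 ± 0.27, 1.66-fold, adjusted p = 0.0286) rose less. Without WT 48 h replicate 1 the calls of Fosl2 (adjusted p = 0.0871), Ier2 (0.0578) and Egr1 (0.152) were lost, and Egr1 was also lost without WT 0 h replicate 3 (0.131) or WT 48 h replicate 2 (0.0684).

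In Rb1KO 5 of 7 members rose and none fell from 0 to 24 h, where 51.0% of all genes passed and 20.4% rose. Jun rose by 2.18 ± 0.19 (4.54-fold, limma adjusted p = 2.55e-09), Jund by 1.84 ± 0.25 (3.57-fold) and Fos by 1.66 ± 0.22 (3.17-fold, adjusted p = 1.26e-06). Junb rose by 1.14 ± 0.29 (2.20-fold) and Ier2 by 0.99 ± 0.22 (1.99-fold), while Egr1 (-0.04 ± 0.20) and Fosl2 (-0.34 ± 0.27) did not pass. From 24 to 48 h, 3 of 7 rose, with 21.0% of all genes passing and 13.4% rising: Jun (2.50 ± 0.24, 5.66-fold), Fosl2 (1.99 ± 0.35, 3.96-fold, adjusted p = 0.000309) and Fos (0.87 ± 0.28, 1.83-fold, adjusted p = 0.0295). The Fos call was lost without Rb1KO 24 h replicate 2 (0.0738) or replicate 3 (0.0678) and without Rb1KO 48 h replicate 1 (0.363). Taken as the mean of its probe sets, Fosl2 was at 0.79 (adjusted p = 0.0834). Junb (1.03 ± 0.37, limma adjusted p = 0.0514) and Jund (0.77 ± 0.32, adjusted p = 0.0914) did not pass. Over the whole 48 h, added later, 6 of 7 were higher in Rb1KO, where 47.4% of all genes passed and 20.5% were higher. These rises ran from 0.99 for Ier2 (1.98-fold) to 4.68 for Jun (25.7-fold). Ier2 was lost without Rb1KO 48 h replicate 1 (0.107), and Fosl2 as the mean of its probe sets was at 0.44 (adjusted p = 0.246).

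The p107KO and DKO cultures had fewer arrays. In p107KO 5 of 7 members rose from 0 to 24 h, where 28.1% of all genes passed and 11.5% rose: Jund by 2.92 ± 0.37 (7.59-fold), Fos by 2.53 ± 0.32 (5.77-fold), Jun by 2.38 ± 0.28 (5.22-fold), Junb by 2.26 ± 0.43 (4.78-fold) and Ier2 by 1.11 ± 0.33 (2.16-fold, limma adjusted p = 0.0128). Ier2 was lost without p107KO 0 h replicate 2 (0.0792) or 24 h replicate 1 (0.0998). In DKO the mean of the single 24 h and 48 h arrays was set against 0 h, and 3 of 7 rose, with 32.1% of all genes passing and 13.8% rising. Jun rose by 2.48 ± 0.28 (5.56-fold), Fos by 1.97 ± 0.32 (3.92-fold) and Jund by 1.22 ± 0.37 (2.33-fold, limma adjusted p = 0.0134). Jund was lost without DKO 0 h replicate 1 or 2 (0.0563 and 0.0739) and, as the mean of its probe sets, was at 0.50 (0.211). Junb (0.77 ± 0.43, adjusted p = 0.179) and Ier2 (0.36 ± 0.33) did not pass in DKO.

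**Figure D4:**
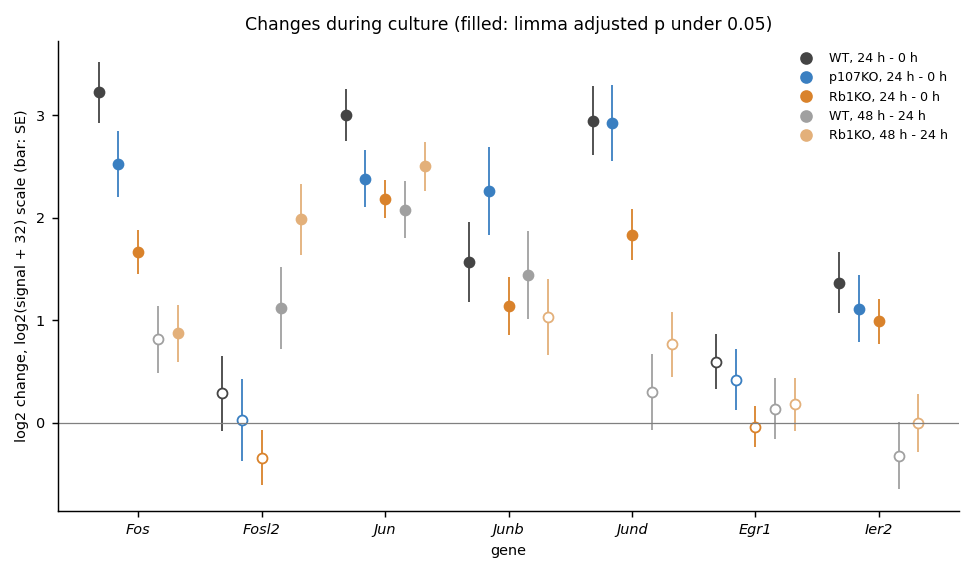
Log2 changes with standard errors for the 7 tested members from 0 to 24 h in WT, p107KO and Rb1KO and from 24 to 48 h in WT and Rb1KO; filled points passed a limma adjusted p of 0.05. Jun is filled in all 5 comparisons (2.08 to 3.005), and Egr1 in none.

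Whether culture changed the members by a different amount in Rb1KO was tested as the difference between the changes. From 0 to 24 h, Fos rose less in Rb1KO than in WT, by -1.56 ± 0.37 (limma adjusted p = 0.045), as 1 of 7 members, where 0.824% of all genes passed and 0.504% were lower. It is the gap between the Fos differences of the genotypes at 0 h (1.65) and at 24 h (0.09). The call was close to the threshold and was lost when any of 9 of the 14 arrays was left out: WT 0 h replicate 1 or 2, WT 24 h replicate 1, Rb1KO 0 h replicate 1, 2, 3 or 5, and Rb1KO 24 h replicate 2 or 3. The weakest of these, without WT 24 h replicate 1, gave -1.09 (adjusted p = 0.311). Jund (-1.11 ± 0.42, limma adjusted p = 0.266) and Jun (-0.82 ± 0.32, adjusted p = 0.296) had negative differences that did not pass. From 24 to 48 h 0 of 7 passed in limma, none had an unadjusted p under 0.05 and 0.0458% of all genes passed; Fosl2 had the largest difference, 0.86 ± 0.53. The same test for p107KO from 0 to 24 h, added later, gave 0 of 7 members, none at an unadjusted p under 0.05 and 0% of all genes.

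The cells that gave the RNA also changed over the culture. In WT from 0 to 24 h, all 7 hepatocyte markers and all 6 stromal markers fell, as did 4 of 5 endothelial, 4 of 7 macrophage and 5 of 6 megakaryocyte markers, while 5 of 6 erythroid, 3 of 7 neutrophil and 3 of 4 mast cell markers rose. Of all genes, 36.9% passed in this step in either direction and 15.0% rose. The summed hepatocyte signal went from between 167182 and 193027 to between 7370.0 and 7397, and the stromal sum from between 7994.5 and 12233 to between 381.7 and 655.2. The summed neutrophil signal went from between 78821 and 99686 at 0 h to between 158247 and 209693 at 24 h and between 304426 and 305073 at 48 h. The megakaryocyte sum was 13070 to 21442 at 24 h and 58064 to 63268 at 48 h, when 6 of 6 of these markers and 4 of 7 macrophage and 4 of 7 neutrophil markers rose. In the same step 3 of 6 stromal and 3 of 7 hepatocyte markers rose and 1 of 6 erythroid markers fell, where 25.2% of all genes passed and 13.2% rose. No mast cell or endothelial marker passed in limma, and 1 of 4 and 2 of 5 had an unadjusted p under 0.05. In Rb1KO the hepatocyte sum went from 147695 to 205750 at 0 h down to 5822 to 15358 at 24 h, and the neutrophil sum from 64017 to 89350 up to 98940 to 291891. The part of these shifts in the changes of the members with time was not tested. Between Rb1KO and WT at 24 h no marker of any of the 8 lists passed in limma, where 7.63% of all genes did. An unadjusted p under 0.05 was found for 3 of 6 megakaryocyte, 2 of 4 mast cell and 1 of 5 endothelial markers. At 48 h 3 of 7 hepatocyte markers were lower in Rb1KO and no marker of the other lists passed, where 10.4% of all genes passed. Of the hepatocyte markers, 6 of 7 had an unadjusted p under 0.05. Such counts are not given for the other lists at 48 h, so the shift cannot be called particular to hepatocytes. The stromal differences ran from -1.23 for Col1a1 (limma adjusted p = 0.0546) to 0.07 for Pdgfra. Those of megakaryocyte markers ran from -0.73 for Ppbp to -0.07 for Itga2b.

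Other genes of the same pathways were followed in lists. Of the AP-1 partners and relatives, 8 of 11 were tested, and in WT 3 rose and none fell from 0 to 24 h, where 36.9% of all genes passed and 15.0% rose. Atf3, a stress-responsive factor that pairs with JUN proteins, rose by 2.78 ± 0.39 in WT (limma adjusted p = 5.62e-06) and by 2.33 ± 0.28 in Rb1KO (adjusted p = 4.62e-07). Its signals in WT were 49.0, 71.8 and 13.7 at 0 h, 558 and 389 at 24 h and 906 and 696 at 48 h, without overlap between times. The small MAF proteins Mafk (1.14 ± 0.23) and Mafg (0.93 ± 0.23) were the other 2. Mafk rose again from 24 to 48 h (0.95 ± 0.25), along with Jdp2 (1.06 ± 0.31), a repressor that pairs with JUN, and was lower in Rb1KO than in WT at 48 h (-1.17 ± 0.25, adjusted p = 0.00301), as 1 of 8, where 10.4% of all genes passed. Of the EGR relatives and NAB corepressors, Egr3 and Egr4 were below the filter, and Nab1, a corepressor of EGR proteins, rose in WT (0.64 ± 0.19) and in Rb1KO (0.78 ± 0.14) from 0 to 24 h.

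Of 26 other immediate early genes 20 were tested. In WT 8 rose and 3 fell from 0 to 24 h (36.9% of all genes passed and 15.0% rose), and 7 rose and 3 fell from 24 to 48 h (25.2% and 13.2%). Zfp36, which promotes decay of mRNAs with AU-rich elements, rose in both steps (2.08 ± 0.20 and 1.49 ± 0.21), as did the zinc finger factor Klf6 (1.86 ± 0.19 and 1.34 ± 0.21), while Ier3 fell in the first (-1.36 ± 0.19). In Rb1KO 9 rose and 3 fell from 0 to 24 h, where 51.0% of all genes passed and 20.4% rose, led by Cebpb, a factor of myeloid cells (3.26 ± 0.29), Zfp36 (1.31 ± 0.14) and Gadd45b (1.70 ± 0.19). Between Rb1KO and WT, 3 were higher and 2 lower at 24 h, where 7.63% of all genes passed, and 2 higher and 2 lower at 48 h, where 10.4% passed. Dusp1 (0.72 ± 0.16 at 24 h and 1.36 ± 0.18 at 48 h) and Klf10 (0.80 ± 0.19 and 1.43 ± 0.22) were higher at both times.

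Of the factors that act on immediate early promoters, 7 of 9 SRF, TCF and CREB genes were tested, and in WT 1 rose and 2 fell from 0 to 24 h, where 36.9% of all genes passed. The one that rose was Crem, a CREB relative with activator and repressor isoforms, by 3.80 ± 0.24 (limma adjusted p = 6.25e-11). It rose by 1.25 ± 0.18 in Rb1KO, and the difference between these changes was -2.55 ± 0.30 (adjusted p = 5.87e-05). The ternary complex factors Elk4 (-0.73 ± 0.20) and Elk3 (-1.01 ± 0.35) were those that fell in WT. Of 9 tested MAP kinase genes, 1 rose (Braf, 1.07 ± 0.19) and 1 fell (Mapk8, -1.12 ± 0.22) in WT from 0 to 24 h. At 24 h Mapk7 (1.70 ± 0.40) and Mapk8 (0.68 ± 0.21) were higher in Rb1KO than in WT, as 2 of 9, where 7.63% of all genes passed. Of 9 tested feedback inhibitors of the pathway, 2 rose and 2 fell in WT from 0 to 24 h, among them the ERK phosphatase Dusp6 (-1.41 ± 0.32) and Dusp10 (1.03 ± 0.32). From 24 to 48 h 3 rose and none fell, where 25.2% of all genes passed, namely Spry1 (1.22 ± 0.22), Dusp16 (1.31 ± 0.25) and Dusp6 (1.17 ± 0.35).

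**Figure D5:**
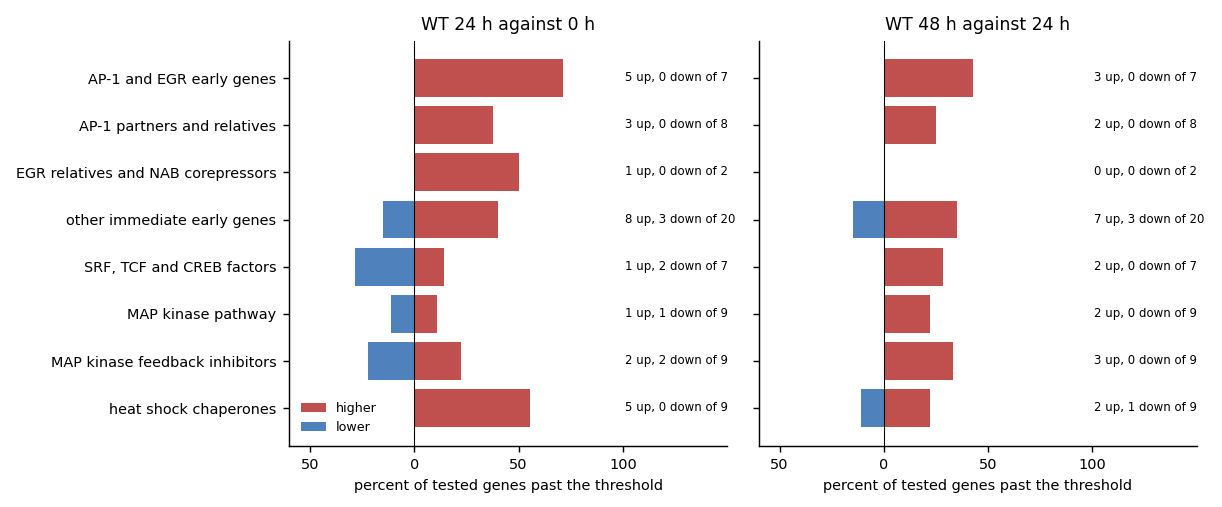
Share of the tested genes of each list that rose or fell in WT from 0 to 24 h and from 24 to 48 h (percent; limma adjusted p under 0.05; falls are drawn to the left), with the counts beside the bars. Of the 7 tested AP-1 and EGR early genes 5 and 3 rose and none fell, against 15.0% and 13.2% of all genes that rose.

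The members differed in how alike their courses were over the 12 group means of log2 signal. These correlations are descriptions over groups that share the large step from 0 h to culture. Fos was most like Jund (Pearson r = 0.95), and Jun most like Junb (0.95), whereas Fos and Egr1 had 0.46 and Fosl2 and Ier2 0.28, the lowest of the pairs. Within groups, over the deviations of 24 arrays from their group means, Junb and Ier2 had r = 0.68 and Jun and Ier2 0.53, while Fos and Jun had -0.42 and Jun and Jund -0.47. These deviations hold only 15 degrees of freedom, and in groups of 2 arrays they mirror each other. Among all tested genes outside the set, those with the highest r with Fos over the 12 group means were Ankrd12 (0.98), Atf3 (0.97) and Trp53inp1 (0.97). For Junb they were Stx5a, Ccrl2 and Msra (each 0.98), for Ier2 Sbds (0.96), Tmem248 (0.94) and Pkn2 (0.93), and for Egr1 Cdk14 (0.93), Pdcd6ip (0.88) and Fam72a (0.87).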

How the data were processed

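The authors deposited linear MAS5 intensities from GCOS 1.4, as the submitters' processing notes name these tools; detection calls and scanner files were not used here. Of 45037 probe sets, 34945 had 1 gene symbol, 932 several and 9160 were unnamed. Each gene was represented by its probe set with the highest mean log2(signal + 32), and the lowest 40% of genes by mean were left out. The added 32 pulls the folds of dim genes toward 0.

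Linear models came from limma 3.58.1 under R 4.3.3 (lmFit, eBayes with a trend), with 12 group means over all 27 arrays, 15 residual degrees of freedom and a prior of 7.17; groups with 1 array borrow the spread of the others. All tests are two-sided with Benjamini-Hochberg adjustment over the 10916 genes and a threshold of 0.05. There were 15 planned comparisons and 5 added after the values were seen. The script was tested on simulated data. The number of arrays limits the precision.

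The members and lists were chosen with earlier results of these data known. The text names the 9 members, Rb1 and Rbl1, per comparison the 3 genes of a list with the lowest adjusted p, and the 3 genes most like Fos, Junb, Egr1 and Ier2. The arrays were fitted as unpaired, and whether same-numbered arrays belong together is not known. Of 36 same-numbered pairs, 11 had deviations with r over 0.1 (-0.17 to 0.22 over all pairs). In groups of 2 arrays the deviations mirror each other, so the pairs are not independent and cannot decide this. Alternatives were other pseudocounts, filters, normalization, probe set rules, array weights, groups fitted, a replicate block, and leaving out arrays. Plots used Python 3.11.15 and matplotlib 3.10.9.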

Additional observations from a re-analysis of the deposited data

Results flagged for a closer look

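In groups of 4 or 5 arrays, 4 of 18 tests of the 9 genes found an array far from the rest of its group, where chance gives about 1 in 20. Fosb on Rb1KO 0 h replicate 3 had a signal of 18.6, against 36.1 to 39.3 on the other 4 arrays. Fosl2 on Rb1KO 24 h replicate 4 had 37.5, against 107.1 to 120.2 on the other 3. Junb on Rb1KO 0 h replicate 5, an array that stood apart across genes, had 73.9, against 215.5 to 262.3. Junb on Rb1KO 24 h replicate 2 had 689.3, against 399.0 to 400.3. The change of Fos from 0 to 24 h differed between Rb1KO and WT by -1.56 on the log2 scale, by the test of the difference itself.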

How the results depend on the processing

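No called member changed direction under any alternative; of 2388 alternative values, 103 that passed nowhere changed sign. The effect of one setting on the number of members that passed is as follows. Quantile normalization moved Rb1KO against WT at 24 h from 0 to 1 (Fosl2, -1.13), and so did leaving out the arrays with Y-linked signal (Jun, -0.95). In these 2 groups the only such array is Rb1KO 24 h replicate 2, whose own removal is reported above. Array weights moved DKO against p107KO at 0 h from 0 to 2 and DKO against WT at 0 h from 1 to 3, where fitting only the groups compared gave 2. Leaving out the 4 arrays that stood apart moved Rb1KO at 48 against 24 h from 3 to 5. Leaving out the arrays with Y-linked signal left only 1 array of p107KO at 0 h and 1 at 24 h, so no count is given for that step. Fitting only the groups compared moved cultured DKO from 3 to 6, on 1 residual degree of freedom. The difference in change from 0 to 24 h between Rb1KO and WT went from 1 to 0 with a pseudocount of 100 (Fos adjusted p = 0.0842), no filter (0.0617), only the groups compared (0.0617), and without arrays with Y-linked signal (0.193), in limma; over all its alternatives the Fos value ran from -2.03 to -1.09. The cause was not tested for any of these.

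Leaving out 1 array at a time gave 0 to 1 members for Rb1KO against WT at 24 h, 0 to 1 for DKO against WT at 0 h, 0 to 1 for the difference in change from 0 to 24 h, 1 to 4 for WT at 48 against 24 h, 4 to 7 for WT at 48 against 0 h, 5 to 6 for Rb1KO at 48 against 0 h, 2 to 4 for Rb1KO at 48 against 24 h, 4 to 5 for p107KO at 24 against 0 h and 2 to 2 for cultured DKO. For cultured DKO only the 0 h arrays were left out in turn, because its 24 h and 48 h groups had 1 array each. Its range therefore does not cover the cultured arrays. Fos in Rb1KO against WT at 0 h passed in all its alternatives, from 1.35 to 1.86 (adjusted p 1.09e-05 to 0.0109). With the replicate number as a block, 4 members passed in WT at 48 against 24 h (Fos gained, adjusted p = 0.0298) and 4 in Rb1KO at 48 against 24 h (Junb gained, 0.0495), and the other counts did not move. Quantile normalization moved the median of all genes from -0.085 to 0.031 for WT at 24 against 0 h. The number of arrays limits the precision, and groups of 1 array have no spread of their own.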
